A study of Mus musculus with 12 samples.

Results

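The baseline miRNA cargo of mouse granulosa cell exosomes was described from the 3 libraries of the untreated group (CON), chosen by their treatment label, out of 12 libraries in the series. Granulosa cells surround the oocyte in the follicle and exchange signals with it. Exosomes are small vesicles that cells release and that carry miRNAs to other cells. The granulosa cells came from ovaries of gonadotropin-injected mice, spent 24 h in exosome-free medium and were then cultured for 48 h without an added agent. The 9 other libraries were used only for comparison. Their cells were all loaded with iron through 100 μM ferric citrate, alone in FAC, beside the chelator deferoxamine mesylate at 100 μM in DFO, or beside the antioxidant VITE (vitamin E) at 200 μM in VE, and each group has 3 libraries. How many mice gave cells to a library was not stated, and no source said that replicates came from separate cultures, so their spread may be technical.

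A miRNA is cut from a hairpin precursor whose stem can give 2 products, the 5p and the 3p arm, and usually only 1 of them is kept at a high level. The kept arm pairs with target mRNAs mainly through its seed, bases 2 to 8, and miRNAs with the same seed form a family with overlapping targets. Each file listed 637 entries, 5 of which join 2 miRNAs, and an entry with at least 1 count is called found here. Counts summed to 1211227, 452021 and 700405 over the entries in CON replicates 1, 2 and 3. These sums were 5.0%, 2.0% and 2.83% of the library total to which the authors scaled. Levels are given as the share of a library's miRNA counts, or as CPM, the counts scaled to 1000000 miRNA counts in a library. The widest 95% Wilson interval of a share of the 15 leading entries spanned 0.226 percentage points, and an entry with no count could still hold up to 0.000248%, 0.000664% and 0.000428% in the 3 libraries, taking 3 counts as the floor. These limits cover counting error alone, as reads amplified by PCR need not be separate molecules.

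The mature sequences of the leading entries and of their close relatives are shown because the cargo was dominated by a few seeds. Of the 637 entries, 549 had a sequence in RefSeq (GRCm38.p6), and they held 68.6% ± 4.10 (SD, n = 3) of the CON counts. The capitals mark the seed.
let-7c-5p: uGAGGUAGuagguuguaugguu
let-7b-5p: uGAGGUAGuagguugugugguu
let-7i-5p: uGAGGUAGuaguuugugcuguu
let-7a-5p: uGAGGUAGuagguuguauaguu
let-7e-5p: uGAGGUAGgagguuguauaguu
let-7d-5p: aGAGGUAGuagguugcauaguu
let-7d-3p: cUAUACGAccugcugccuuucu
miR-423-5p: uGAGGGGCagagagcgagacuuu
miR-99a-5p: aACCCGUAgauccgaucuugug
miR-99b-5p: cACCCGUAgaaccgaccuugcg
miR-100-5p: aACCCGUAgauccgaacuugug
miR-148a-3p: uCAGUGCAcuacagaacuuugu
miR-10b-5p: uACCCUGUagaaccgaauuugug
miR-10a-5p: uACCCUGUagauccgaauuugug
miR-615-3p: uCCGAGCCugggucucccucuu
Counted from the 5′ end, let-7b-5p differed from let-7c-5p at 1 base (A17G) and let-7a-5p at 1 base (G19A), both outside the seed. miR-100-5p differed from miR-99a-5p at 1 base (U16A), and miR-10a-5p from miR-10b-5p at 1 base (A12U). How reads that match several of these entries were counted is not given in the sources used here, so the split between such neighbours is uncertain and the family sum is the safer quantity.

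A few entries made up most of the untreated cargo. The 10 most abundant entries of each library held 81.7% ± 0.502 (SD, n = 3) of its miRNA counts. It took 5, 5 and 4 entries to reach 50% of the counts in CON replicates 1, 2 and 3. For 90% it took 19, 17 and 19 entries, and for 99% 97, 78 and 80. The effective number of entries, the number of equally abundant entries that would give the same Shannon entropy, was 19.1 ± 1.12 (SD, n = 3). These values were close between the 3 libraries although their counts differed.

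**Figure D1:**
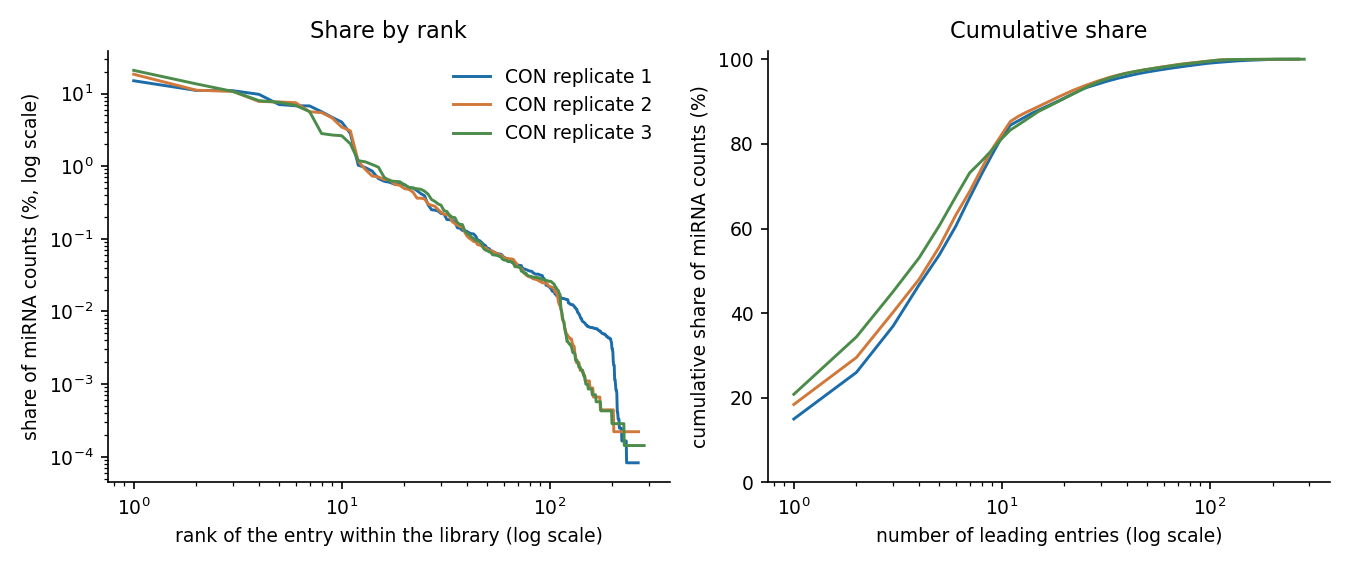
Share of miRNA counts (%) against the rank of the entry within its library (left, both axes logarithmic) and cumulative share against the number of leading entries (right, logarithmic horizontal axis), with 1 line for each of the 3 CON libraries. The lines run close together over the leading ranks, and the first 10 entries reach between 81.3% and 82.3% of the counts.

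let-7c-5p led all 3 libraries. The let-7 miRNAs are known as brakes on growth and stem cell genes such as Lin28 and Hmga2. let-7c-5p held 15.0%, 18.4% and 20.8% of the counts in CON replicates 1, 2 and 3, a mean of 18.1% ± 2.94 (SD, n = 3). miR-122-5p, known as the dominant miRNA of hepatocytes, came next by mean share. It held 11.0%, 11.1% and 10.7%, a mean of 10.9% ± 0.223 (SD, n = 3), the smallest spread relative to its mean among the 43 entries with a mean share of at least 0.1%. miR-423-5p, a broadly expressed miRNA, held 6.75%, 10.7% and 13.6% and ranked between 7 and 2 in the libraries.

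miR-148a-3p, known to target the DNA methyltransferase Dnmt1, held 9.75%, 7.78% and 6.86%. miR-151-3p held 6.78%, 7.65% and 7.99%. miR-99a-5p, of a family known to target mTOR, held 7.05%, 7.48% and 5.65%. For these 3 entries the libraries differed by less than 1.5-fold.

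miR-143-3p, known from smooth muscle and other mesenchymal cells, was the least even of the leading entries. It held 10.9% in CON replicate 1 but 4.60% and 2.81% in CON replicates 2 and 3. miR-10b-5p, which lies within the Hoxd cluster, held 5.62%, 3.45% and 2.03%, in the same order of libraries. let-7b-5p went the other way, with 4.69%, 5.62% and 7.57%. The entry that joins miR-486a-5p and miR-486b-5p, known from red blood cells, held 4.05%, 5.46% and 2.68%.

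miR-99b-5p closed the group of 11 leading entries with 2.81%, 3.06% and 2.62%. Below it the mean share dropped to 1.09% ± 0.119 (SD, n = 3) for miR-122b-3p. let-7d-3p followed with 0.883% ± 0.316, miR-320-3p, which matures without Drosha, with 0.753% ± 0.206, and miR-615-3p, from an intron of Hoxc5, with 0.733% ± 0.279 (SD, n = 3 each). Only let-7c-5p and miR-122-5p were among the top 5 of every library, and 8 entries were in the top 5 of at least 1. Of the top 10, 9 were shared by all 3 libraries, and miR-10b-5p and miR-99b-5p exchanged the remaining place. Of the top 50 entries of a library, 38 were shared by all 3, and of the top 100, 61.

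**Figure D2:**
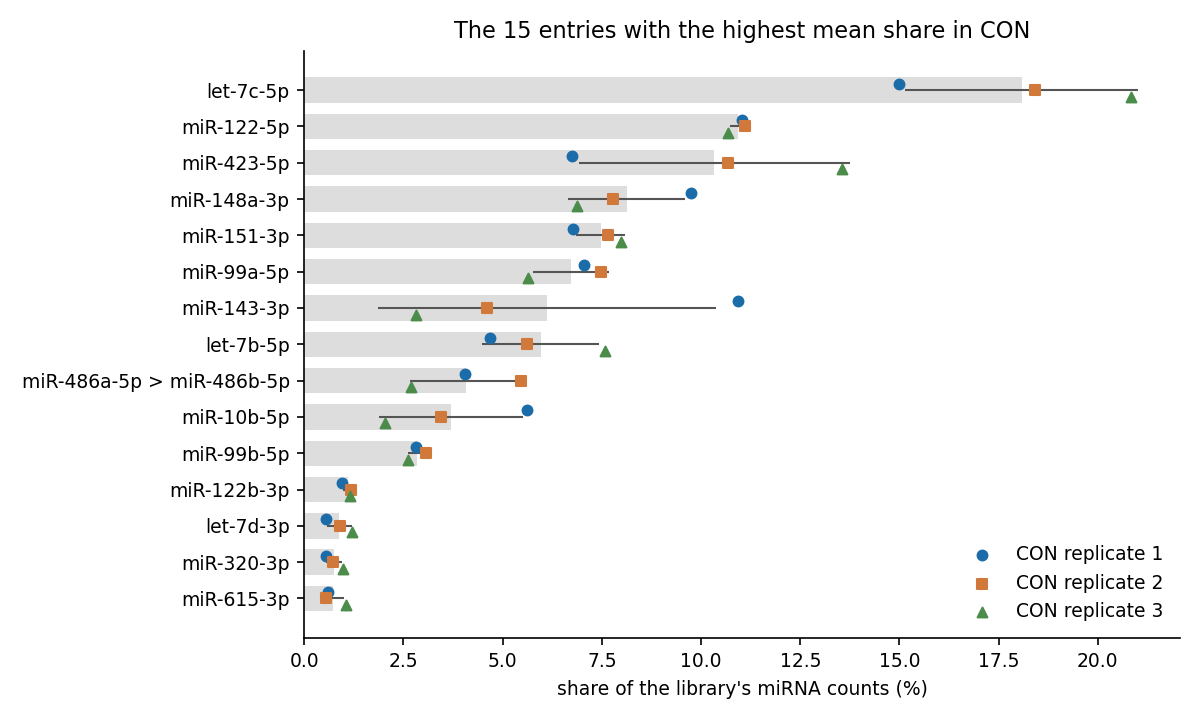
Share of the library's miRNA counts (%) for the 15 entries with the highest mean share in CON, with bars for the mean, lines for the SD (n = 3) and a symbol for each library. The step from miR-99b-5p at 2.83% to miR-122b-3p at 1.09% and the wide spread of miR-143-3p can be seen.

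Several leading entries are neighbours in the genome (GRCm38.p6, GENCODE annotation, names only). let-7c-5p comes from 2 genes. Mirlet7c-1 and Mir99a lie in intronic sequence of Mir99ahg on chromosome 16, and Mirlet7c-2 lies with Mirlet7b in exonic sequence of Lncppara on chromosome 15. Mir99b lies in an intron of Spaca6 on chromosome 17, as does Mirlet7e. Mir423 lies in an intron of Nsrp1 on chromosome 11. Neighbours were not equally abundant: let-7e-5p held 0.130%, 0.362% and 0.612% where miR-99b-5p held 2.62% or more in each library.

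Families were formed only from the entries with a sequence. miR-122-5p, miR-151-3p, miR-143-3p and the miR-486 entry have none here and are outside this ranking, although the mean share of miR-122-5p alone was above that of any family but the let-7 family. In CON replicate 3 miR-122-5p held 10.7%, below the 13.6% of miR-423-5p. Summed by seed, the let-7 family, with 10 entries that share GAGGUAG, was the largest of those formed. It held 21.3%, 25.8% and 30.7% of the counts, a mean of 25.9% ± 4.67 (SD, n = 3), and all 10 entries were found in all 3 libraries. let-7c-5p made up 69.8% of the family mean. Besides let-7b-5p, let-7i-5p held 0.557% ± 0.119, let-7a-5p 0.473% ± 0.0117 and let-7f-5p 0.375% ± 0.130 (SD, n = 3 each). let-7d-5p held 0.00469% ± 0.00212 (SD, n = 3). The family was thus carried by 2 closely related entries.

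miR-423-5p, alone on the seed GAGGGGC, came next among these families with 10.3% ± 3.42 (SD, n = 3). The miR-99 and miR-100 family, on the seed ACCCGUA, held 10.3%, 10.8% and 8.32%, a mean of 9.79% ± 1.29. Within it miR-100-5p held 0.419%, 0.217% and 0.0510%, the largest spread relative to its mean among the 43 entries of at least 0.1%. The miR-148 and miR-152 family, on CAGUGCA, held 8.18% ± 1.48, of which miR-148a-3p was 99.4%. The miR-10 family, on ACCCUGU, held 4.41% ± 1.93 (SD, n = 3 each), with miR-10a-5p at 0.707%. Together these 5 families held 58.6% ± 3.76 (SD, n = 3) of the counts. The mean shares of miR-122-5p (10.9%), miR-151-3p (7.47%) and miR-143-3p (6.11%), which are in no family here, were each above that of the miR-10 family. The seed of the miR-125 family, CCCUGAG, ranked next at 1.25% ± 0.0383 (SD, n = 3).

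**Figure D3:**
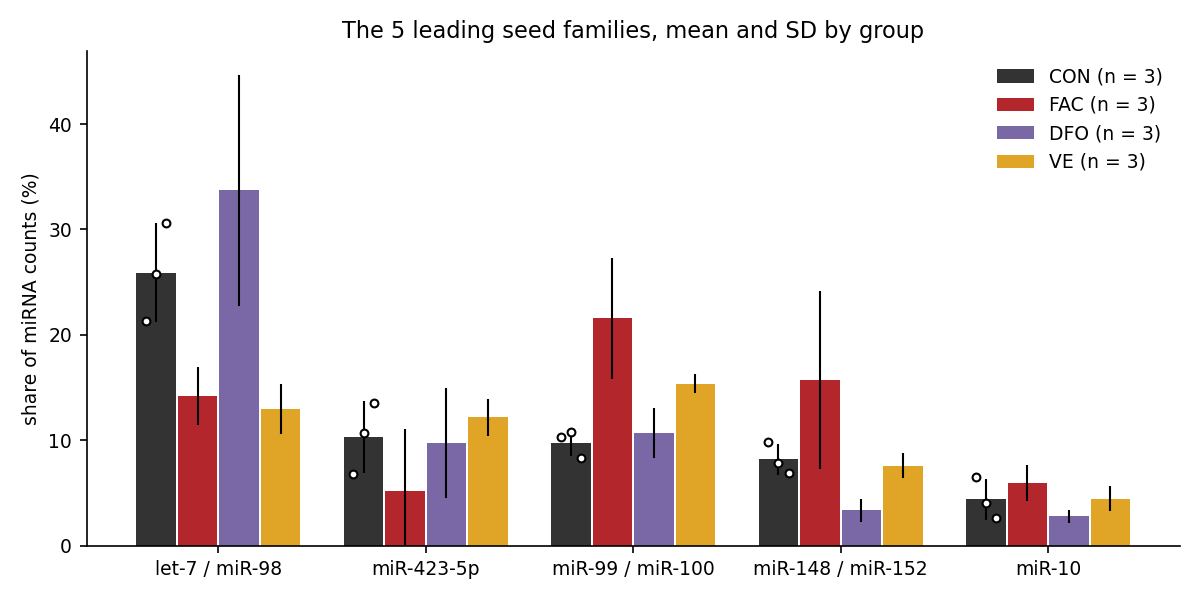
Share of miRNA counts (%) of the 5 leading seed families, formed from entries with a RefSeq sequence, as mean and SD by group (n = 3 libraries each), with the CON libraries as open points. The let-7 and miR-98 family is the largest in CON at 25.9%, and the bars of the other groups are drawn for scale.

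Most counts lay on 5p arms. Of the counts on entries with an arm in their name, 64.0%, 72.1% and 73.7% were on 5p arms, a mean of 69.9% ± 5.17 (SD, n = 3), although 275 entries were 5p and 294 were 3p. Without the most abundant entry the mean was 63.4%. Entries with no arm in their name held 0.244% ± 0.105 (SD, n = 3). The 3p counts came mainly from miR-148a-3p, miR-151-3p and miR-143-3p, and the low 5p share of CON replicate 1 stood beside its high miR-143-3p share.

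Within a hairpin, mostly 1 arm was present. Both arms were listed for 127 hairpins, and 54 of them had at least 10 counts over both arms in each CON library. The 5p arm was the more abundant in all 3 libraries for 23 and the 3p arm for 27. In 38 of the 54 (70.4%), 1 arm held at least 95% of the counts in every library, and 13 had no count at all on the other arm. For miR-99a the 5p arm had 85411, 33816 and 39567 counts and the 3p arm none. For miR-151 the 3p arm had 82179, 34584 and 55935 counts against 0, 1 and 1 on the 5p arm. The split of miR-148a was as sharp, with 118045, 35180 and 48065 counts on the 3p arm and 0, 1 and 3 on the 5p arm.

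Of the hairpins paired by name, only 6 had at least 10 counts on each arm in each library. miR-423 was 95.5% ± 2.46 5p, miR-99b 96.2% ± 0.513 and miR-125a 87.8% ± 4.65 (SD, n = 3 each). let-7d used its 3p arm, unlike let-7b, let-7i and let-7e, with 6777, 4057 and 8342 counts on the 3p arm against 84, 20 and 19 on the 5p arm, or 0.647% ± 0.517 5p. miR-30a was 37.0%, 11.9% and 37.7% 5p. miR-34c, of a family induced by p53, was 54.4%, 91.1% and 94.5% 5p.

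The dominant arm changed between CON libraries for 4 of the 54 hairpins, all under 0.03% of the counts. miR-145a was 65.4%, 98.0% and 46.7% 5p, and miR-503 was 66.3%, 93.8% and 28.6%. miR-1843a was 20.6%, 97.7% and 73.7% 5p, and miR-23b was 83.9%, 80.2% and 7.14%. In CON replicate 3 these rested on 15 counts for miR-145a, 21 for miR-503, 19 for miR-1843a and 28 for miR-23b. miR-1843a differed in CON replicate 1, where it had 51 counts on the 5p arm and 196 on the 3p arm. In CON replicate 2 it had 84 and 2, so its change between these libraries did not rest on few counts. With at least 50 counts over both arms in each library, 39 hairpins remained and 0 changed their dominant arm. That minimum leaves out all 4 through CON replicate 3.

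**Figure D4:**
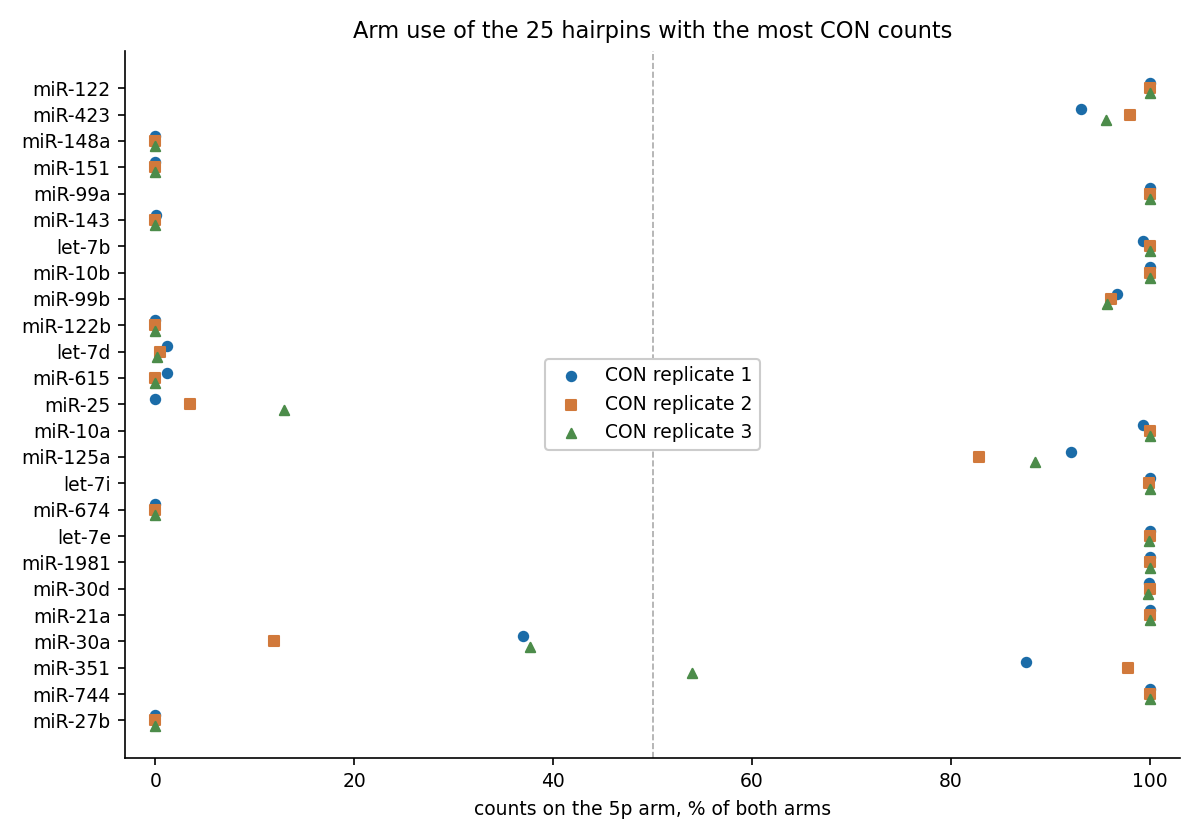
Counts on the 5p arm as a percentage of both arms, with a symbol for each library. Drawn are the 25 hairpins with the highest mean share among those paired by name with at least 10 counts over both arms in each CON library. let-7c, miR-125b and miR-486 are not paired by name and are not drawn. Most hairpins sit near 0% or 100% in all 3 libraries, and miR-30a, miR-351, miR-25 and miR-125a lie further inside.

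Of the 637 entries, 190 (29.8%) were found in all 3 CON libraries, 66 in 2, 115 in 1 and 266 in none. The 190 shared entries held 99.7% ± 0.0682 (SD, n = 3) of the counts. With at least 10 counts in every library, 106 entries were shared, and with at least 50 counts, 74. The 115 entries of a single library held 0.0998% ± 0.0209, and 85 of them had at most 3 counts there, which is at the floor. Where the mean level was over 1000 CPM, all 43 entries were in all 3 libraries. Between 100 and 1000 CPM 87 of 95 were, between 10 and 100 CPM 44 of 91, and at 10 CPM or below 16 of 142.

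Some of the entries found in 1 library were far above the floor. miR-363-3p had 0, 0 and 371 counts in CON replicates 1, 2 and 3, and miR-1966-5p had 0, 0 and 251. miR-1188-5p had 0, 0 and 120 counts and was not found in any of the 9 other libraries. miR-5110 had 0, 121 and 0 counts, miR-6970-5p 0, 109 and 0, and miR-425-3p 0, 55 and 0. At the same share, the 371 counts of miR-363-3p would have been 642 in CON replicate 1 and 239 in CON replicate 2.

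In all, 54 of the 175 entries (30.9%) with at least 100 counts in a CON library had at most 3 counts in another. Of these, 22 were high in CON replicate 1, 10 in CON replicate 2 and 22 in CON replicate 3. At equal share the low library would have had between 38.1 and 697 counts. Examples are let-7b-3p with 414, 2 and 3 counts, miR-219a-1-3p with 2 in CON replicate 1 against 403 in CON replicate 3, and miR-1a-3p, a muscle miRNA, with 587, 0 and 185. The 54 entries held 0.572% ± 0.161 (SD, n = 3) of the counts. With the same count limits, the share of such entries was 30.6% in FAC, 33.6% in DFO and 29.4% in VE. The libraries of these groups had more miRNA counts, so 100 counts mark a lower level there than in CON.

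The counts of a library also left a sparse range. In CON replicate 1, 51 entries had 1 to 3 counts, 6 had 4 to 9, 8 had 10 to 24, 5 had 25 to 49 and 56 had 50 to 99. In CON replicate 3, 20 entries had 10 to 24 counts, 8 had 25 to 49, 5 had 50 to 99 and 22 had 100 to under 200. CON replicate 2 had 7 entries at 25 to 49 counts, 12 at 50 to 99 and 31 at 100 to under 200.

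**Figure D5:**
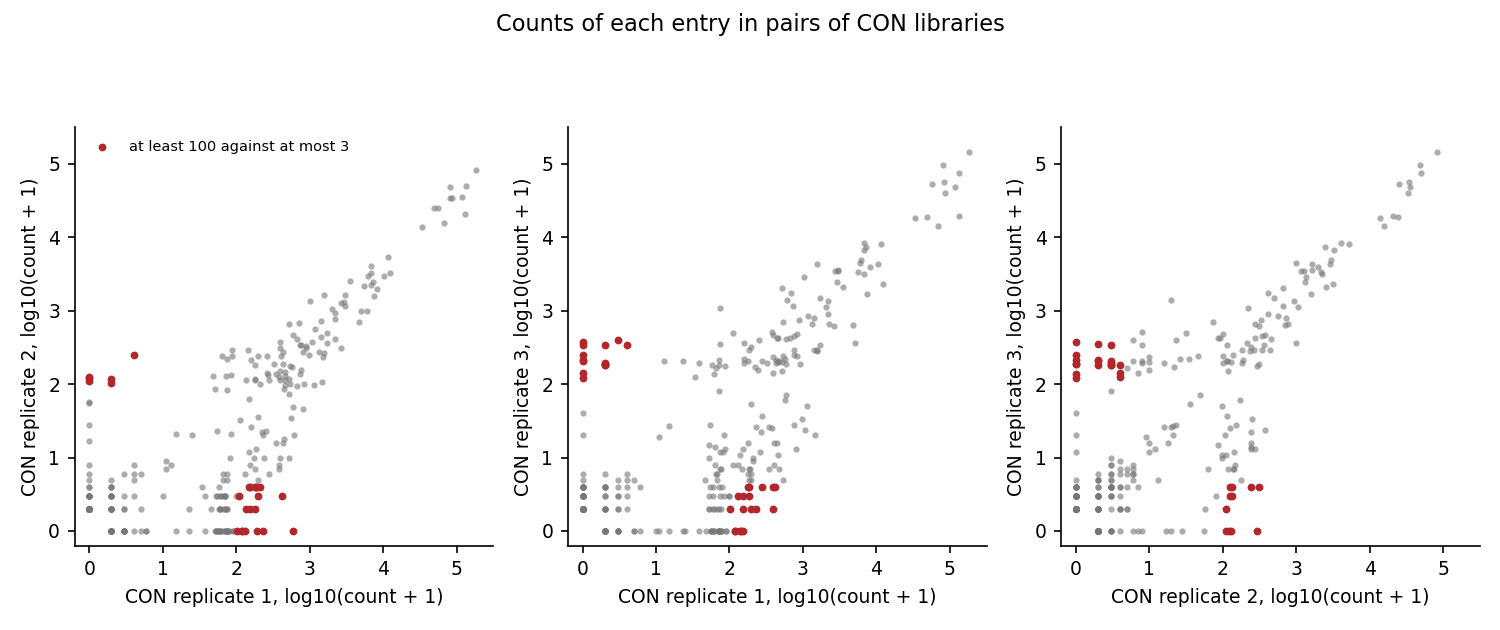
Counts of each entry in pairs of CON libraries, on the log10(count + 1) scale, for entries found in either library. Red points mark entries with at least 100 counts in 1 library and at most 3 in the other, and the most abundant entries lie along a common line in all 3 panels.

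The CON libraries were thus close in their leading entries and less alike in the rest. The Bray-Curtis distance between shares, which is 0 for identical and 1 for disjoint libraries, was 0.146 between CON replicates 1 and 2, 0.227 between 1 and 3 and 0.125 between 2 and 3, a mean of 0.166. miR-143-3p gave 15.6% of this distance on average, miR-423-5p 13.3% and let-7c-5p 11.4%. Spearman's rho over the 371 entries found in any CON library was between 0.690 and 0.720, with a mean of 0.705. This is a description over entries that share their libraries and depth. The counts of each pair differed by far more than counting error, with a chi-square per degree of freedom between 220 and 663, so no library was a copy of another.

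The spread between libraries depended on the level. The median coefficient of variation of the share (SD over mean, n = 3) was 0.172 for the 12 entries over 10000 CPM, 0.358 for 31 entries at 1000 to 10000 CPM and 0.849 for 95 entries at 100 to 1000 CPM. After miR-122-5p, the entries of at least 0.1% with the smallest coefficients were let-7a-5p (0.0246), miR-672-5p (0.0633), miR-99b-5p (0.0783), miR-151-3p (0.0829) and miR-122b-3p (0.109). Besides miR-100-5p and miR-143-3p (0.698), the largest were those of miR-744-5p (0.777), miR-296-3p (0.765), miR-30d-5p (0.750) and miR-351-5p (0.660). The common biological coefficient of variation, edgeR's estimate of the spread beyond counting error, was 1.44 over 237 entries with at least 10 counts in all. It was 0.722 over the 106 entries with at least 10 counts in every CON library.

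Among the distances to all 11 other libraries, CON replicates 1 and 3 were nearest to CON replicate 2. CON replicate 2 was nearest to DFO replicate 3 (0.115), a library with ferric citrate, and then to CON replicate 3. The mean distance within a group was 0.166 in CON, 0.293 in FAC, 0.262 in DFO and 0.133 in VE. Between libraries of different groups it was 0.303. Rank agreement ordered the groups otherwise, with Spearman's rho taken over the entries found in either library of a pair. Its mean was 0.676 in CON, 0.735 in FAC, 0.678 in DFO and 0.738 in VE. Between libraries of different groups the mean rho was 0.683, so CON libraries were no closer in rank than those.

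Markers of cell types were read as shares of the miRNA counts, which cannot tell fewer cells of a type from less RNA per cell. Of 14 miRNAs described for granulosa cells and ovary, 12 were among the entries and 9 were found in all 3 CON libraries, with summed levels of 15488, 17322 and 19797 CPM. miR-320-3p led with 5594, 7314 and 9687 CPM. miR-125b-5p had 5079, 6553 and 7016 CPM, and miR-21a-5p, known to keep granulosa cells alive after the ovulatory signal, 1682, 2325 and 1585 CPM. miR-351-5p had 2199, 686 and 868 CPM. miR-224-5p, which is linked to transforming growth factor signalling in these cells, had 130, 55.3 and 314 CPM. miR-132-3p, induced by luteinizing hormone, had 49.5, 2.21 and 1.43 CPM, and its partner miR-212-3p was at 0 in CON, as were miR-202-5p and miR-31-5p. miR-503-5p had 346, 137 and 6 counts and miR-378a-3p 3, 4 and 5 counts, so some of the 9 were near the floor.

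Of the listed entries known from other cell types, only miR-122-5p, miR-143-3p and the miR-486 entry were above the sum of this list. The leukocyte, epithelial, endothelial, muscle, early embryo and neural lists each summed to less than it. The hepatocyte marker miR-122-5p was at 106880 CPM or more in every CON library and between 4.77% and 17.1% of the counts in the 9 other libraries. The stromal list (7 of 7 found) summed to 11.0%, 4.68% and 2.82%, nearly all of it miR-143-3p, and its members without miR-143-3p averaged 622 CPM. The erythroid list (2 of 3 found) summed to 4.13%, 5.52% and 2.69%, led by the miR-486 entry. miR-451a, the other red cell marker, had 811, 549 and 45.7 CPM, and miR-144-3p was at 0.

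Of the leukocyte list, miR-223-3p and miR-142a-3p were at 0, and the 6 members summed to 328, 35.4 and 230 CPM, mostly miR-150-5p in CON replicates 1 and 3. The epithelial list (6 of 7 found) lay between 6.64 and 339 CPM, the muscle list (2 of 2) between 246 and 597 CPM and the endothelial miR-126a-3p between 6.64 and 156 CPM. Of the 2 entries of the early embryo list, miR-294-3p had 42.9, 0 and 1.43 CPM and miR-292a-3p was at 0, and the neural miR-9-5p was at 0. CON replicate 1 had the highest sum of the stromal, leukocyte, epithelial, endothelial, muscle and early embryo lists. The part of other cells or of the culture medium in these levels was not tested.

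In sequence, most of the matched counts were on entries that begin with U. Among entries with a sequence, those with U as the first base held 75.2%, 76.7% and 80.6% of the counts of these entries in CON replicates 1, 2 and 3. By number of entries the share was ordinary, with 43.4% of the 166 found in all 3 CON libraries, 40.8% of the 223 found in none and 40.9% of all 1679 mature sequences. Motifs described for the loading of miRNAs into exosomes were searched on the mature strand, and their shares are again of the counts of entries with a sequence, not of all miRNA counts. GGAG was in 12.05% of the 166 entries and 14.2% of all mature sequences, and held 2.14% ± 0.304 (SD, n = 3) of these counts. CCCU was in 9.04% of the 166 and 11.4% of all, and held 10.5% ± 3.29 of them, led by miR-10b-5p. GGCU was in 17.5% of the 166 and 13.3% of all, and held 3.12% ± 0.378 of them. Any of the 3 motifs was in 33.7% of the 166, 34.98% of the 223 and 35.02% of all mature sequences. A match is a description of the letters only.

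The shape of the cargo was compared with the 9 libraries that received ferric citrate, over 5 measures. The share of miRNA counts in the library total was 5.0%, 2.0% and 2.83% in CON. In the 9 other libraries it had a lowest value of 5.53%, a median of 14.6% and a highest of 30.4%, so the groups did not overlap. The difference of means was -13.2 percentage points (exact permutation test, two-sided, p = 0.0182, adjusted p = 0.0909), in which the smallest p that 3 against 9 allows is 0.00455. This difference did not pass after adjustment.

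The other 4 measures overlapped between the groups, and each had an adjusted p of 0.668 (exact permutation tests, two-sided). The most abundant entry held 18.1% ± 2.94 in CON (SD, n = 3) and 20.2% ± 6.19 in the others (SD, n = 9). The effective number of entries was 19.1 ± 1.12 against 18.2 ± 1.39. The 5p share was 69.9% ± 5.17 against 73.9% ± 8.23. At an equal depth of 452021 counts, 254.8 ± 14.7 entries were expected to be found in CON and 278 ± 58.7 in the others.

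Single entries were compared in edgeR's quasi-likelihood test over 547 entries, as CON minus the mean of the FAC, DFO and VE groups, at an adjusted p under 0.05. Of the 15 leading entries, 2 were higher in CON by this test, against 4.39% of all entries tested. The 15 were ranked on these same CON counts, which favours a higher value in CON. The 2 calls therefore cannot be read as an excess over that percentage. miR-143-3p was higher by 1.16 on the log2 scale (adjusted p = 0.0113), with 10.9%, 4.60% and 2.81% in CON and a lowest share of 1.28%, a median of 2.79% and a highest of 7.48% in the 9 others. Without CON replicate 1 the log2 difference was 0.57 (edgeR, adjusted p = 0.706), and without CON replicate 2 it was 1.19 (adjusted p = 0.0536). The call was also lost in edgeR with the filterByExpr filter (adjusted p = 0.113). let-7b-5p was higher by 0.95 (adjusted p = 0.0464), with 4.69%, 5.62% and 7.57% in CON and 1.12%, 2.80% and 9.59% as the lowest, median and highest of the others. Its call held without CON replicate 1, FAC replicate 3 or DFO replicate 1 and was lost without any other single library, with adjusted p values in edgeR up to 0.570 without CON replicate 3. It was not called in DESeq2 (adjusted p = 0.185), nor in edgeR with no composition factor (0.132), with no filter (0.0678) or with filterByExpr (0.253). Both entries overlapped between the groups.

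All 24 called entries were higher in CON, but 10 of them had at most 3 counts in any of the 9 other libraries. These 10 entered the test only through their CON counts, which fixes their direction. In 0 of the 24 did CON lie apart from the 9 others. Of the 24, 12 had counts in only 1 CON library and 6 in only 2, such as miR-363-3p and miR-1188-5p above. At an unadjusted p under 0.05 there were 72 entries. These differences are relative to the miRNA counts of a library after edgeR's TMM composition factor, with a median over the 547 entries of -0.87 on the log2 scale. With no composition factor the log2 difference in edgeR was 1.04 for miR-143-3p and 0.80 for let-7b-5p. Relative to the library total, in limma on log2(RPM + 1), miR-143-3p and let-7b-5p were lower in CON, by values of -1.42 (adjusted p = 0.140) and -1.45 (adjusted p = 0.0712). Leaving out 1 library gave from 6 calls, without CON replicate 3, to 32, without FAC replicate 3.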

How the data were processed

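Small RNA of exosomes from untreated mouse granulosa cells (3 CON libraries) and from cells with ferric citrate (9 libraries) was sequenced with reads of 15 to 41 bp. The authors deposited raw read counts per miRNA entry for each library, and the same values as RPM, counts scaled to 1000000 of 1 library total. Each count divided by its RPM gave that total, and what reads it holds is not given in the sources used here. The submitters' processing notes name mm9. The aligner, the miRNA database and the counting of reads with several matches are not given. Sequences and neighbours come from RefSeq and GENCODE on GRCm38.p6, so no coordinates are printed.

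Libraries were grouped by their titles. Python 3.11.15 and SciPy 1.17.1 gave the shares, CPM, arms, seed families, distances and exact permutation tests. Counts were tested in edgeR 4.0.16 (quasi-likelihood, TMM, at least 10 counts over the 12 libraries, 4 groups in 1 fit, Benjamini-Hochberg adjustment), with DESeq2 1.42.0 and limma 3.58.1 as alternatives. The edgeR step was tested on simulated data. Every simulated entry had the same biological coefficient of variation. The step found 164 of 200 changed entries at a coefficient of 0.2. It found 0 of 200 at 1.574, the common estimate over the 12 libraries. Entries with many counts spread less than that, so the simulation does not give the power for the leading entries. CPM is relative to miRNA counts, and RPM to all reads of the total.

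Named were the 15 entries with the highest mean share in CON, those in the top 5 of a library, the 5 leading seed families, hairpins with at least 10 counts on each arm or a changing dominant arm, 6 entries found in 1 library, the 6 least and 6 most variable entries of at least 0.1%, and the marker lists (granulosa and ovary, erythroid, leukocyte, stromal, epithelial, endothelial, muscle, hepatocyte, neural, oocyte and early embryo). Other entries were chosen as examples after their values were seen. The members and lists were chosen with earlier results of these data known. Alternatives were other count minimums, normalizations, tests, averaging and leaving out each library.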

Additional observations from a re-analysis of the deposited data

How the results depend on the processing

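For the summary values, not counting single entries, 75 alternative values kept their size or call, 26 moved and 2 changed direction, where a count of calls within 1.5 times of the reported one is taken as kept. Part of the 75 was fixed in advance. A mean over the 3 CON libraries cannot move by its SD when 1 library is left out. Tests against the FAC libraries alone could not reach a call. The 75 is therefore not a measure of stability. let-7b-5p and miR-143-3p, described with their values in the report and below, both changed direction relative to the library total and lost their calls under several alternatives. Without joined entries the share of the 10 leading entries was 83.7%, and without the most abundant entry the 5p share was 63.4%. The number of entries found in all 3 CON libraries was 106 at 10 and 74 at 50 counts, and that of entries found in only 1 library was 33, 27 and 20 at 3, 10 and 50 counts. Hairpins that change their dominant arm were 0 at 50 counts. Spearman's rho was 0.781 over the 190 entries found in all 3 libraries. With 1 CON library left out, only 1 pair remains. The rho of 0.690 to 0.720 and the Bray-Curtis distance of 0.125 to 0.227 then repeat the values of the single pairs. The biological coefficient of variation was 0.722 with 10 counts in every library and between 1.24 and 1.396 with 1 library left out. Against the FAC libraries alone, the difference in 5p share turned from -3.95 to 4.30 percentage points (exact permutation test, adjusted p = 0.7, with 0.1 as the smallest raw p). The cause was not tested.

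The edgeR count of 24 was the least stable. It was 13 with no filter, 2 with filterByExpr, 34 with RLE factors, 17 with no composition factor and between 6 and 32 with 1 library left out (16 without CON replicate 1, 14 without CON replicate 2, 6 without CON replicate 3, and 32 without FAC replicate 3). DESeq2 called 18 entries, 9 higher and 9 lower, of which 4 were among the 24. limma on log2(RPM + 1) called 90, all lower in CON, none of them among the 24, and log2 differences were -1.45 for let-7b-5p and -1.42 for miR-143-3p. Values on this scale are relative to the library total, and their median over the entries was -0.55.

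With the replicate number as a block, 1 entry was called, and let-7b-5p (adjusted p = 0.357) and miR-143-3p (adjusted p = 0.170) were not. No pairing by number was seen in the deviations: those of same-numbered libraries correlated at -0.0841 to 0.0331 over 9 pairs. Of the 3 CON libraries, 1 correlated best with its own number. No source used here said how the replicates were prepared, and with so wide a spread these values cannot show that the numbers are unrelated. In the exact permutation tests within replicate numbers, the miRNA share gave p = 0.0469 (adjusted p = 0.234) and the other 4 measures an adjusted p of 0.734. Depth limits entries with few counts: at 452021 counts, 3 counts are 6.64 CPM.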

Other observations

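Each of the 637 entries has a count somewhere in the series. The 266 with no count in any CON library were therefore bound to be found in at least 1 of the 9 libraries with ferric citrate. Those libraries had more miRNA counts. Of the 266 entries, 25 were found in 5 or more of the 9, and 56 reached 100 counts in a library. miR-26b-5p, of a family common in many tissues, was found in 7 of the 9 libraries with at most 421 counts in a library, at up to 0.00778% of the counts. miR-9-5p, a miRNA of the nervous system, was found in 5 of the 9 with at most 198 counts in a library, and had the highest share of the 266 in a library, 0.0144%. These entries were chosen after their values were seen, and whether depth or treatment separates the groups here cannot be told apart.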
